A study of Mus musculus with 10 samples.

Results

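The genes described here are the 2 Id protein genes *Id2* and *Id3* and the 3 E protein genes *Tcf3*, *Tcf4* and *Tcf12*, 5 of the 48321 gene symbols counted, chosen by symbol as helix-loop-helix factors known from lymphocytes. The choice was made with earlier results of these data known. All 5 passed the filter on low counts, which 13796 genes passed. They were measured by RNA-seq in 10 libraries of CD4+ T cells sorted from the spleens of C57BL/6 mice, in 5 groups of 2 libraries. The WT groups were FoxP3+CD25+ cells (Tregs) and FoxP3-CD25- cells (non-Tregs). The KO groups were the same populations and FoxP3+CD25- cells, from *Satb1* F/F mice carrying *ThPOK-cre*. FoxP3 was read from a GFP reporter of *Foxp3*, which the WT mice carry as well in the study's account of the sort. The *ThPOK-cre* driver acts in cells committed to the CD4 lineage, so KO Tregs and KO non-Tregs both derive from cells that had met the recombinase. The labels give neither age nor sex, and the study describes its mice as young adults of mixed sexes. The 2 libraries of a group are numbered, and the same number within a genotype was read as 1 mouse, which the labels imply without stating it. WT FoxP3+CD25- cells were not analysed here.

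E proteins are transcription factors that bind the E-box, a short DNA motif, as dimers through a basic helix-loop-helix region. Id proteins carry the helix-loop-helix but not the basic region, so a dimer of an Id and an E protein does not bind the motif. The balance of both kinds is known to set steps of lymphocyte development, and in mature T cells *Id2* and *Id3* are known to mark different states of activation and memory. *Tcf3* encodes E2A, whose splice forms E12 and E47 a count per gene does not separate, *Tcf12* encodes HEB, and *Tcf4* encodes E2-2, best known from plasmacytoid dendritic cells and B cells.

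The genes lie on separate chromosomes (GRCm38, GENCODE annotation). *Id2* spans chr12:25093799-25097140 on the minus strand and *Id3* spans chr4:136143497-136145755 on the plus strand. *Tcf3* spans chr10:80409514-80433647 and *Tcf12* chr9:71842688-72111871, both on the minus strand. None of the 5 shares exon bases with another annotated gene. The E-box itself, CANNTG on either strand, was searched in RefSeq windows around start sites (250 bases before to 50 after each start, GRCm38.p6). It occurs in windows of 3 of the 4 members searched, and *Tcf4* was not searched. Such a match is common, since 72.3% of all 32851 windows hold CANNTG and 16.3% hold its form CAGCTG. The forms CAGGTG or CACCTG occur in 20.2% of all windows, and each window of the members searched held 0 of them. These 3 stretches are shown because they carry a match to the E-box letters CANNTG, in capitals. Each is read 5′ to 3′ on the strand of its gene, the minus strand.
Id2, chr12:25096273-25096298: tttgccacccCAGCTGggctctcgcc
Tcf3, chr10:80433674-80433699: tgggcgtggtCACTTGggggcgtggc
Tcf12, chr9:72112044-72112069: agatgctgccCAGCTGcgtccccgtc
The window of *Id2* held 1 match, as did that of *Tcf3*. The window of *Id3* held 0. *Tcf12* has 3 windows, with 1, 2 and 1 matches. A match is a description of the letters and not of binding.

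Libraries held 6094952 to 12410064 reads counted on genes, and the 5 members had between 68 (*Tcf4*) and 2113 (*Tcf12*) counts per library. Levels below are CPM, the usual scaling of counts to the size of a library, with TMM factors, and FDR is the Benjamini-Hochberg adjusted p of edgeR's quasi-likelihood test over the 13796 genes. A gene is said to differ at FDR under 0.05. *Foxp3* followed the sort. It averaged 18.3 ± 0.481 CPM (SD, n = 2) in WT non-Tregs and 667 ± 69.1 in WT Tregs. In KO mice it averaged 29.2 ± 13.7 in non-Tregs, 339 ± 30.8 in FoxP3+CD25- cells and 693 ± 65.5 in Tregs. The targeted gene did not follow the genotype. *Satb1* stood at 849 ± 44.9 CPM in WT non-Tregs against 762 ± 113 in KO non-Tregs (FDR = 0.927), and at 428 ± 69.6 in WT Tregs against 566 ± 45.5 in KO Tregs (FDR = 1). KO FoxP3+CD25- cells had the highest *Satb1* mean, 1090 ± 136 CPM (FDR = 0.523 against WT non-Tregs and 0.00377 against KO Tregs). A count per gene also takes reads from exons that a deletion leaves, so it cannot check the genotype, and KO here means the libraries labelled so. Both WT libraries numbered 1 held 14487 and 16362 *Xist* counts and 0 counts on Y-linked genes. No other library had more than 4 *Xist* counts, and the others held 3039 to 4750 counts on Y-linked genes. By these counts the WT libraries numbered 1 came from a female and all others from males. Comparisons of KO with WT thus set males against WT mice of both sexes. WT values of the members are therefore given with and without the WT libraries numbered 1 where the call depends on them. Those of list genes are given with all libraries only. The 6 T-cell markers summed to 2779 to 3579 CPM over all libraries, and *Cd4* had 4783 to 13213 counts.

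*Id2* was the member that varied most. It stood at 137 and 86.1 CPM in the WT non-Treg libraries and at 43.8 and 38.6 in the WT Treg libraries. In KO mice it stood at 186 and 135 CPM in non-Tregs, 109 and 70.8 in FoxP3+CD25- cells, and 51.0 and 36.0 in Tregs. The 4 Treg libraries were the 4 lowest of the 10, and KO FoxP3+CD25- cells lay between KO Tregs and KO non-Tregs without overlap. In each of the 4 mice the non-Treg library had the higher level. *Id2* was 3.13-fold and 2.23-fold higher in non-Tregs than in Tregs of the WT mice, and 3.66-fold and 3.75-fold higher in those of the KO mice.

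*Id3* had another order. It stood at 28.7 and 31.6 CPM in WT non-Tregs, the 2 lowest of the 10 libraries, and at 42.9 and 61.4 in WT Tregs. The KO libraries were closer together, at 76.4 and 61.3 CPM in non-Tregs, 58.5 and 51.9 in FoxP3+CD25- cells, and 67.9 and 67.3 in Tregs. Thus *Id3* separated WT Tregs from WT non-Tregs, whereas the ranges of KO Tregs and KO non-Tregs overlapped.

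*Tcf3* and *Tcf12* had nearly the same level everywhere. *Tcf3* ran from 106 to 146 CPM over the 10 libraries with a median of 125, a 1.37-fold range. *Tcf12* ran from 159 to 201 CPM with a median of 183, a 1.26-fold range. *Id2*, by comparison, ranged 5.17-fold and *Id3* 2.66-fold.

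*Tcf4*, on chromosome 18, was low, with 68 to 121 counts per library. It stood at 6.79 and 7.43 CPM in WT non-Tregs and at 10.1 and 8.03 in WT Tregs. In KO mice it stood at 12.6 and 10.7 CPM in non-Tregs, 14.9 and 13.2 in FoxP3+CD25- cells, and 12.1 and 13.1 in Tregs. All 6 KO libraries were above all 4 WT libraries. The share of all genes with such an order was not counted, so it is no result by itself. By edgeR no comparison of KO with WT called *Tcf4* (lowest FDR = 0.0687, KO FoxP3+CD25- cells against WT non-Tregs). With 2 mice per genotype the genotype and the mouse cannot be told apart in this order.

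**Figure D1:**
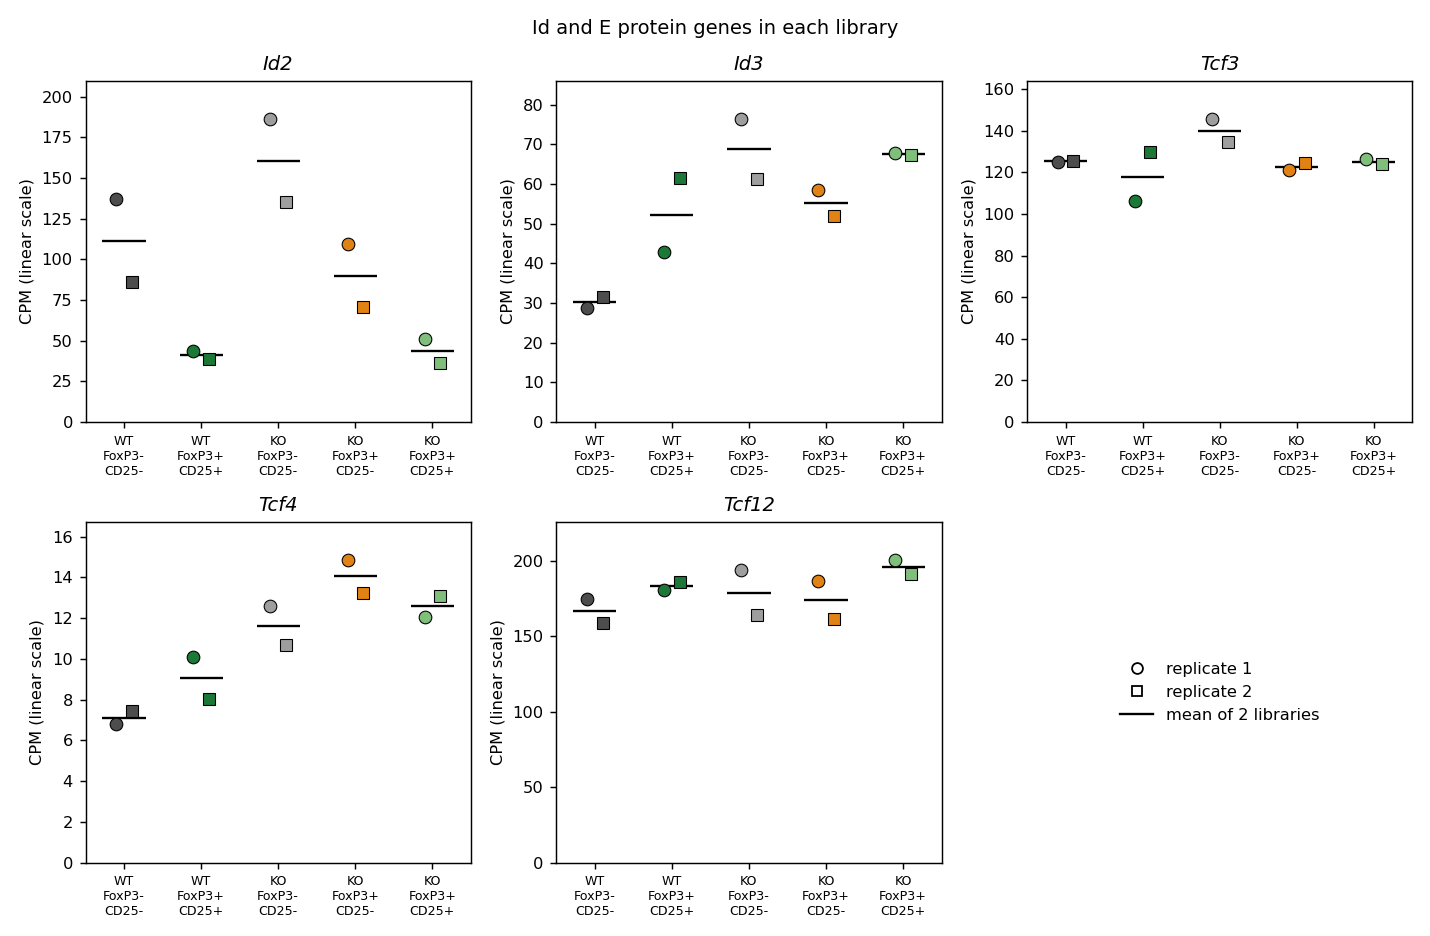
CPM (linear axis from 0) of the 5 member genes in each of the 10 libraries, by group. Circles and squares are replicates 1 and 2 and lines are means of 2 libraries. *Id2* is lowest in the 4 Treg libraries, at 36.0 to 51.0 CPM, *Id3* is lowest in WT non-Tregs, at 28.7 and 31.6 CPM, and *Tcf3* and *Tcf12* stay within a 1.37-fold and a 1.26-fold range.

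The other Id genes were at or near the floor. *Id1* had 2 to 10 counts per library. *Id4* had 0 counts in all 10 libraries, where 3 counts, the most that a count of 0 allows, correspond to 0.242 to 0.492 CPM before scaling, for counting error only.

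The first comparison asked how Tregs differ from non-Tregs in WT mice. *Id2* fell and *Id3* rose, and no E protein gene differed. Thus 2 of the 5 members differed, 1 in each direction, where 10.9% of all genes tested did so (7.15% higher and 3.75% lower in Tregs). *Id2* was 2.71-fold lower in WT Tregs (log2 fold change -1.44, SE 0.27, FDR = 0.00574). *Id3* was 1.73-fold higher (log2 0.79, SE 0.18, FDR = 0.0135). The differences of the E protein genes were -0.09 for *Tcf3*, 0.13 for *Tcf12* and 0.35 for *Tcf4* on the log2 scale. Their 95% intervals were -0.33 to 0.16, -0.12 to 0.39 and -0.12 to 0.83. In these bulk samples, fewer cells that express a gene and less of its RNA per cell cannot be told apart. Both calls depended on single libraries. *Id2* was at -1.07 (FDR = 0.057) without replicate 1 of the WT non-Tregs and at -1.15 (FDR = 0.136) without both WT libraries numbered 1. *Id3* was at 0.72 (FDR = 0.124) and 0.86 (FDR = 0.0706) without replicates 1 and 2 of the WT non-Tregs, at 0.53 (FDR = 0.057) without replicate 2 of the WT Tregs, and at 0.96 (FDR = 0.0266) without both WT libraries numbered 1.

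Tregs of KO mice were compared with KO non-Tregs in the same way. *Id2* was again lower, by 3.70-fold (log2 -1.89, SE 0.28, FDR = 0.00231), and it was called under all 13 alternatives, 4 of which left out a library (FDR = 0.00503 to 0.0308). It was the only 1 of the 5 members that differed, in a comparison where 6.34% of genes did (3.52% higher and 2.81% lower in Tregs). *Id3* was at -0.02 on the log2 scale, with a 95% interval of -0.40 to 0.36 (FDR = 0.979). *Tcf3*, *Tcf4* and *Tcf12* were at -0.16, 0.12 and 0.13 (lowest FDR = 0.593, *Tcf3*).

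The Treg difference in *Id3* was 0.79 in WT and -0.02 in KO mice, and the difference between these was tested itself, as the KO effect in Tregs minus the KO effect in non-Tregs. For *Id3* it was -0.82 (SE 0.25, unadjusted p = 0.00698, edgeR), which did not pass the adjustment over all genes (FDR = 0.717), and with the mouse as a block FDR was 0.0585. For *Id2* it was -0.45 (95% interval -1.29 to 0.40). Of the 5 members, 0 passed in this test with edgeR and 1 had an unadjusted p under 0.05. DESeq2 called 0 of them. Across all genes edgeR called 0, which is 0%, with 685 at an unadjusted p under 0.05, and DESeq2 called 23.

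FoxP3+CD25- cells were sorted from KO mice as well, and they were compared with both others. *Id2* was 2.07-fold higher in them than in KO Tregs (log2 1.05, SE 0.28, FDR = 0.0459), the only 1 of the 5 members to differ there. All genes differed at 7.01% (2.25% higher and 4.76% lower in FoxP3+CD25- cells). Within the 2 KO mice the *Id2* level was 2.14-fold and 1.96-fold higher. This call was lost on leaving out replicate 1 of the FoxP3+CD25- cells (0.71, FDR = 0.290) or replicates 1 or 2 of the KO Tregs (1.31 and 0.81, FDR = 0.0749 and 0.286). *Id3* was at -0.30 (95% interval -0.68 to 0.09), and the E protein genes were at -0.03 for *Tcf3*, 0.15 for *Tcf4* and -0.17 for *Tcf12*.

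Against KO non-Tregs, *Id2* in KO FoxP3+CD25- cells was 1.79-fold lower (log2 -0.84, SE 0.26, 95% interval -1.43 to -0.26). The unadjusted p was 0.00915 and FDR was 0.197, so none of the 5 members was called by edgeR, in a comparison that called 1.67% of genes (0.319% higher and 1.35% lower). With the mouse as a block, *Id2* differed (-0.85, FDR = 0.00105), and DESeq2 called it as well (-0.84, FDR = 0.0363), the only 1 of the 5. It was also the only member at an unadjusted p under 0.05 by edgeR, where 1379 of all 13796 genes were. In the KO mice the level was 1.71-fold and 1.91-fold lower than in non-Tregs of the same mouse. *Id3*, *Tcf3*, *Tcf4* and *Tcf12* were at -0.32, -0.19, 0.27 and -0.04, with FDR from 0.644 to 0.966.

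**Figure D2:**
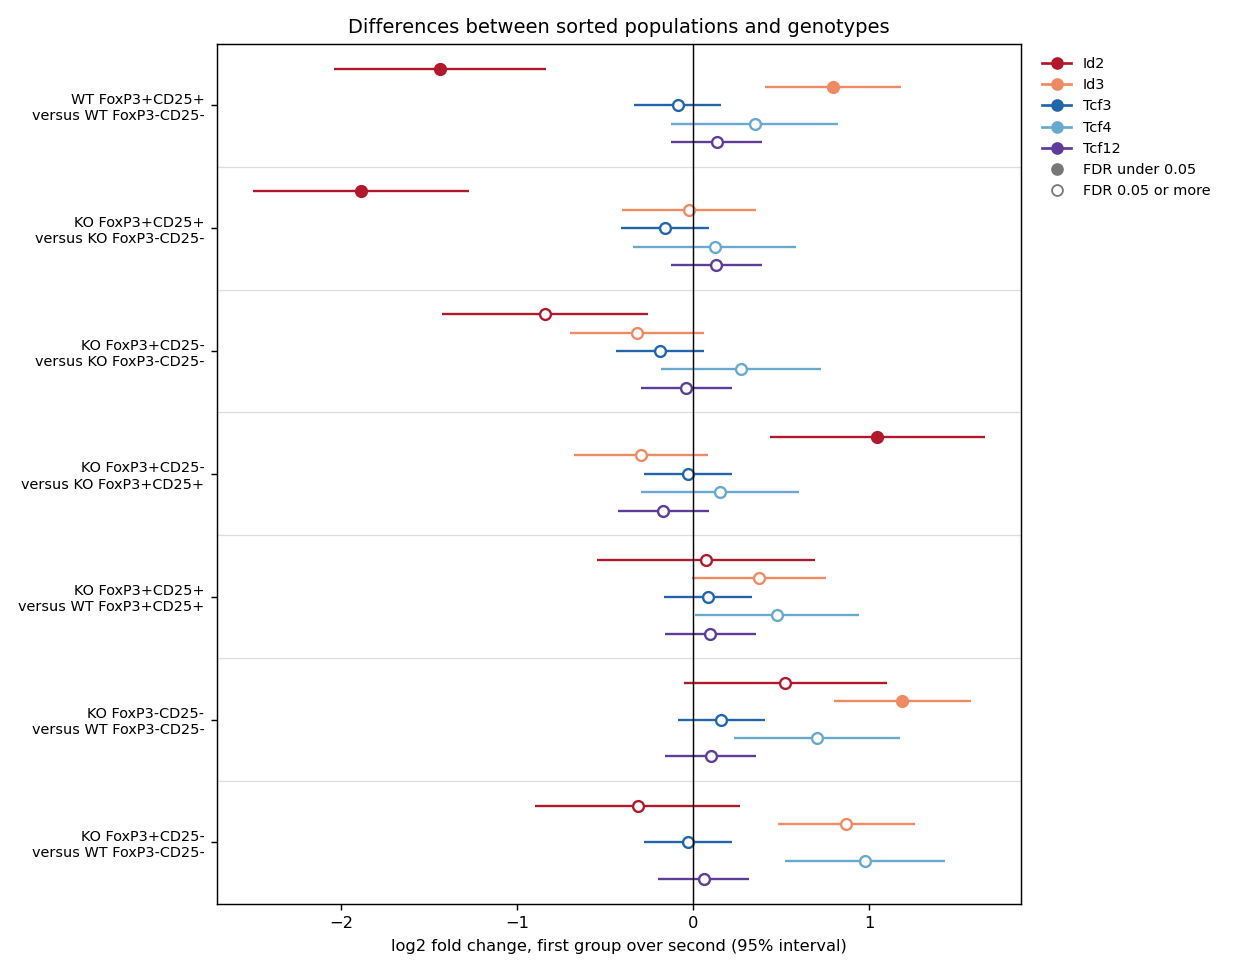
Log2 fold changes (x axis, first group over second) of the 5 members in 7 comparisons, with 95% intervals as lines. Filled points passed FDR 0.05 over all genes tested: *Id2* at -1.44, -1.89 and 1.05, and *Id3* at 0.79 and 1.19.

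The next comparisons set libraries labelled KO against those labelled WT within a population. In non-Tregs *Id3* was higher, the only 1 of the 5 members that differed, where 0.145% of genes did (0.116% higher and 0.029% lower in KO). It was 2.28-fold higher in KO non-Tregs (log2 1.19, SE 0.18, 95% interval 0.80 to 1.58, FDR = 0.0326). Both KO libraries, at 76.4 and 61.3 CPM, lay above both WT libraries, at 28.7 and 31.6. Leaving out any 1 of the 4 libraries ended the call but kept the size. *Id3* was at 1.12 (FDR = 0.239) and 1.27 (FDR = 0.248) without WT replicates 1 and 2, and at 1.03 (FDR = 0.277) and 1.34 (FDR = 0.079) without KO replicates 1 and 2. Without both WT libraries numbered 1 it was at 1.12 (FDR = 0.0663). *Tcf4* was 1.63-fold higher (log2 0.70, SE 0.21, unadjusted p = 0.00735, FDR = 0.343) and *Id2* was at 0.52 (95% interval -0.05 to 1.10, FDR = 0.675). *Tcf3* and *Tcf12* were at 0.16 and 0.10.

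In Tregs 0 of the 5 members differed between KO and WT by edgeR, 1 had an unadjusted p under 0.05, and DESeq2 called 0. Only 0.00725% of all genes, 1 gene, differed, and 592 of the 13796 had an unadjusted p under 0.05. *Id2* was at 0.08 (95% interval -0.54 to 0.69) and *Id3* at 0.37 (95% interval -0.01 to 0.75). *Tcf4* was at 0.48 (unadjusted p = 0.0459, 95% interval 0.01 to 0.94, FDR = 1). *Tcf3* and *Tcf12* were at 0.08 and 0.10.

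KO FoxP3+CD25- cells were also set against WT non-Tregs, which share their lack of CD25. By edgeR 0 of the 5 members differed, in a comparison that called 0.768% of genes (0.355% higher and 0.413% lower), and DESeq2 called 1, *Id3*. By edgeR 2 members had an unadjusted p under 0.05, as did 1214 of all 13796 genes. The 2 members were *Id3* at 0.87 (SE 0.18, FDR = 0.0565) and *Tcf4* at 0.98 (SE 0.21, FDR = 0.0687). Both gained the call under some of the 13 alternatives. *Tcf4* was called under 2, with no filter on low counts (FDR = 0.0375) and with the replicate number as a block (FDR = 0.0376). *Id3* was called under 4, the same 2 (FDR = 0.0156 and 0.0403), DESeq2 (FDR = 0.00388) and a fit of the compared groups only (FDR = 0.0163). Over all 13, FDR reached 0.465 for *Tcf4* and 0.482 for *Id3*. Both stood higher in KO FoxP3+CD25- cells, with no overlap between the groups. *Tcf3*, at -0.03 (FDR = 0.998), did not overlap either. With 2 libraries per group, a lack of overlap is thus no result by itself. *Id2* was at -0.32 (95% interval -0.90 to 0.26), and its value was 0.06 without replicate 1 of the WT non-Tregs.

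The levels of each gene over the 5 groups can be ordered. *Id2* averaged 161 ± 36.2 CPM in KO non-Tregs, 111 ± 36.0 in WT non-Tregs, 90.0 ± 27.2 in KO FoxP3+CD25- cells, 43.5 ± 10.6 in KO Tregs and 41.2 ± 3.63 in WT Tregs. Of the neighbours in this order, only KO FoxP3+CD25- cells and KO Tregs differed by the test. *Id3* averaged 68.8 ± 10.7 CPM in KO non-Tregs, 67.6 ± 0.392 in KO Tregs, 55.2 ± 4.71 in KO FoxP3+CD25- cells, 52.1 ± 13.1 in WT Tregs and 30.2 ± 2.01 in WT non-Tregs. Here only WT Tregs and WT non-Tregs differed among the neighbours tested, and KO FoxP3+CD25- cells were not tested against WT Tregs. *Tcf4* averaged 14.1 ± 1.15, 12.6 ± 0.741 and 11.6 ± 1.34 CPM in KO FoxP3+CD25- cells, KO Tregs and KO non-Tregs, and 9.07 ± 1.47 and 7.11 ± 0.451 in WT Tregs and WT non-Tregs, with no neighbours that differed by the tests run.

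Levels were compared between genes per kilobase of exon (RPKM). Averaged over the 10 libraries, *Id2*, *Tcf3* and *Id3* stood at 36.7, 31.3 and 30.6 RPKM, *Tcf12* at 11.6 and *Tcf4* at 0.398. The length of *Tcf4* is that of the union of exons of 62 transcripts, 27382 bases, so that its RPKM is a low estimate wherever shorter transcripts are made. The same holds for *Tcf12*, with 15529 bases over 21 transcripts, against 4039 bases for *Tcf3*. In CPM *Tcf12* stood above *Tcf3*, with medians of 183 and 125, so their order depends on the length used. The E protein sum below carries the same limit. The sum of *Id2* and *Id3* ranged from 41.9 to 119 RPKM, a 2.84-fold range, and the sum of *Tcf3*, *Tcf4* and *Tcf12* from 38.3 to 49.0, a 1.28-fold range. The Id sum averaged 62.6 ± 13.6 RPKM in WT non-Tregs and 46.0 ± 5.84 in WT Tregs. In KO mice it averaged 104 ± 20.8 in non-Tregs, 67.7 ± 13.8 in FoxP3+CD25- cells and 55.6 ± 4.55 in Tregs. The KO non-Treg libraries, at 119 and 89.6 RPKM, were the 2 highest.

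The share of *Id3* in the Id sum was higher in Tregs than in non-Tregs of both genotypes. It was 22.2% and 33.3% in WT non-Tregs and 35.8% and 38.2% in KO non-Tregs. It was 57.1% and 68.4% in WT Tregs and 64.5% and 71.8% in KO Tregs. KO FoxP3+CD25- cells stood between, at 42.2% and 49.9%, with no overlap with either. On the CPM scale the log2 ratio of *Id3* to *Id2* averaged -1.84 ± 0.57 in WT non-Tregs, -1.21 ± 0.10 in KO non-Tregs, -0.67 ± 0.32 in KO FoxP3+CD25- cells, 0.32 ± 0.49 in WT Tregs and 0.66 ± 0.34 in KO Tregs. The Treg share was thus above the non-Treg share in each of the 4 mice. No test was run on these shares and ratios, which are given as a description.

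**Figure D3:**
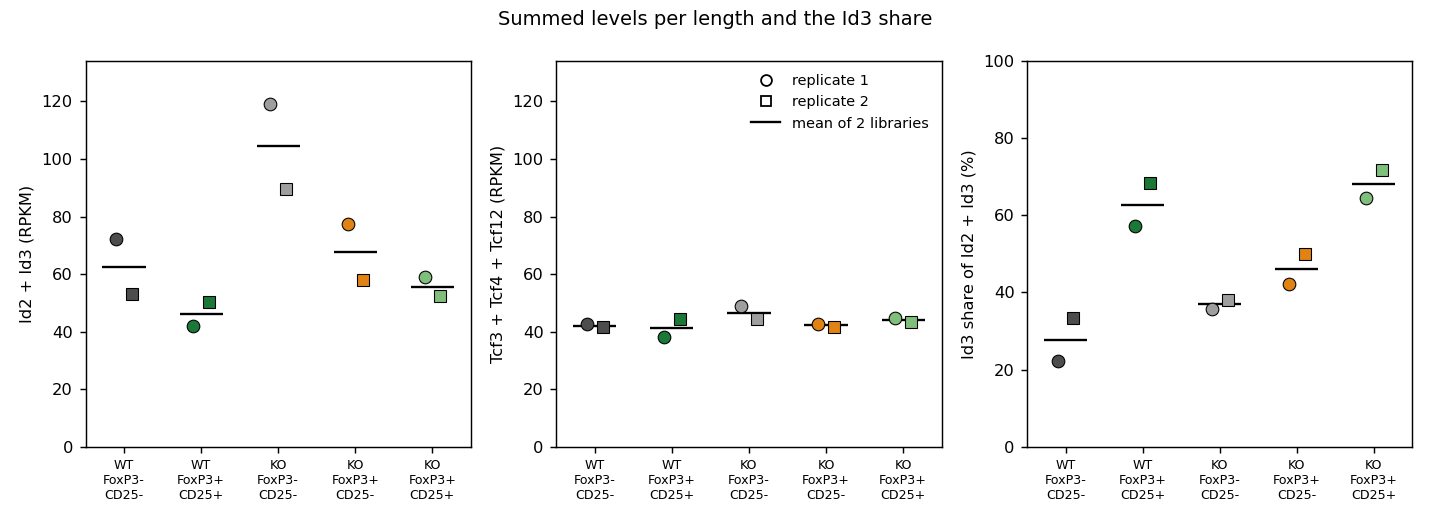
Sums per length (RPKM) of *Id2* and *Id3* (left) and of *Tcf3*, *Tcf4* and *Tcf12* (middle, same axis), and the share of *Id3* in the Id sum in percent (right), per library by group. Circles and squares are replicates 1 and 2 and lines are means of 2 libraries. The E protein sum stays between 38.3 and 49.0 RPKM while the Id sum runs from 41.9 to 119, and the 4 Treg libraries have the 4 highest *Id3* shares, 57.1% to 71.8%.

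Genes around the Id and E proteins were taken from lists of pathway genes. These lists, and those of resting and effector T cells below, were chosen with earlier results of these data known. Their counts beside the share over all genes are thus a description and no independent result. Among 10 helix-loop-helix partners of E proteins restricted to certain tissues, 2 passed the filter on low counts. Each passed only through the populations where it was high, so that their number is no result and their values are a description. *Lyl1*, known from blood progenitors, had 9 and 17 counts in WT Tregs against 4 and 1 in WT non-Tregs, and averaged 1.58 ± 0.606 against 0.217 ± 0.161 CPM. *Ascl2*, known from follicular helper T cells, had 4 and 3 counts in WT Tregs against 16 and 16 in WT non-Tregs, and averaged 0.433 ± 0.111 against 1.49 ± 0.230 CPM. In KO mice *Lyl1* had 12 and 14 counts in Tregs against 1 and 2 in non-Tregs, and *Ascl2* had 1 and 1 against 7 and 17. Both are near the floor of detection, and DESeq2 called neither of them in any comparison.

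Of 9 cofactors of E proteins, such as LMO adaptors, 7 were tested, and 1, *Lmo4*, differed between WT Tregs and non-Tregs (-0.85, SE 0.23, FDR = 0.041). With 10.9% of all genes called there, 1 of 7 is near the background. The list had a median of -0.07, against -0.02 over all genes tested. In the other 7 comparisons edgeR and DESeq2 called 0 of the 7, with at most 1 at an unadjusted p under 0.05 in each.

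The 15 genes of signals upstream of Id genes, whether they raise or lower them, gave 14 tested. They are TGF-beta and BMP receptors, SMADs and EGR factors. In WT Tregs 3 rose and 1 fell, where 7.15% of all genes rose and 3.75% fell, with a median of 0.46 against -0.02 over all genes. *Tgfbr1* and *Bmpr2*, which encode receptor chains for TGF-beta and BMP, rose by 1.53 and 1.70 on the log2 scale, and *Egr2*, induced by the T-cell receptor, rose by 1.44. *Tgfbr2*, which encodes the other TGF-beta receptor chain, fell by 0.89. In KO Tregs *Tgfbr1* and *Bmpr2* rose (1.10 and 1.20) and *Tgfbr2* fell (-0.84), where 3.52% of all genes rose and 2.81% fell, and the list's median was 0.16. In KO FoxP3+CD25- cells 0 of the 14 differed from KO non-Tregs by edgeR or DESeq2, with 1 at an unadjusted p under 0.05, while against KO Tregs 3 were higher (*Tgfbr2*, *Smad4* and *Smad5*) and 3 lower (*Tgfbr1*, *Bmpr2* and *Egr2*), median -0.20, where 2.25% of all genes were higher and 4.76% lower. *Tgfbr1*, for example, averaged 152 ± 3.17 CPM in KO Tregs, against 70.7 ± 1.99 in KO non-Tregs and 71.7 ± 6.72 in KO FoxP3+CD25- cells.

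Of 16 genes known as targets of E proteins in lymphocytes, 11 were tested. In WT Tregs 4 rose and 1 fell, 5 of 11 where 10.9% of all genes differed, with a median of 0.51. *Cdk6*, a cell-cycle kinase gene, rose by 1.52, *Socs1*, a brake on cytokine signals, by 0.97, and *Gfi1*, a repressor gene, by 1.11. *Il7r*, the interleukin-7 receptor, fell by 1.53. *Zbtb16*, which encodes the factor PLZF, passed the filter only through the KO non-Tregs, with 8 and 20 counts there and 0 to 3 in each of the 8 other libraries, and it is left out of the counts called below. In KO Tregs 2 rose (*Socs1* and *Gfi1*) and 2 fell (*Il7r* and *Cxcr5*), where 6.34% of all genes differed, and the median over the 11 was 0.19. In KO FoxP3+CD25- cells 0 rose and 1 fell against KO non-Tregs, where 1.67% of all genes differed, median 0.11. *Cxcr5*, the homing receptor of follicular helper T cells, fell by 2.45 there, from 62.1 ± 17.4 to 11.4 ± 0.314 CPM. Against KO Tregs 1 target was higher (*Il7r*) and 3 were lower (*Cdk6*, *Cxcr5* and *Socs1*, -1.48, -1.48 and -0.56), median -0.57, where 7.01% of all genes differed. Against WT non-Tregs *Cxcr5* alone fell, by 1.63, where 0.768% differed.

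Genes of resting and of effector T cells were listed as well, since Id genes are known to differ between these states. Of 7 resting genes, WT Tregs had 4 lower, among them *Lef1* (-1.65) and *Tcf7* (-1.20), and *Bcl2* higher (0.72), median -0.81. Of 12 effector genes, 8 were higher, among them the integrin gene *Itgae* (5.97), and 0 lower, median 1.26, where 7.15% of all genes were higher and 3.75% lower. In KO Tregs, where 3.52% of all genes were higher and 2.81% lower, 3 resting genes were lower and 1 higher, and 3 effector genes were higher and 2 lower (*Tbx21* and *Cxcr3*). *Klrg1*, a receptor gene of effector cells, is 1 of the 8 and of the 3, and no non-Treg library reached the level that the filter asks for, so that without it 7 and 2 were higher. In KO FoxP3+CD25- cells 0 of the 7 resting genes differed from KO non-Tregs by edgeR or DESeq2, with 2 at an unadjusted p under 0.05, and 5 of the 12 effector genes were lower and 0 higher, median -1.30, where 0.319% of all genes were higher and 1.35% lower. The memory marker *Cd44* fell by 3.17, from 152 ± 6.23 to 17.0 ± 1.31 CPM, the chemokine receptor *Cxcr3* by 3.34, and *Tbx21*, which encodes T-bet, stood at -3.98. Against KO Tregs 3 resting genes were higher and 8 effector genes lower, where 2.25% of all genes were higher and 4.76% lower. Of these 8, *Gzmb* and *Klrg1* were under the filter's level in both FoxP3+CD25- libraries, and 6 were lower without them. Against WT non-Tregs 3 effector genes were lower (*Cd44*, *Cxcr3* and *Tbx21*), where 0.413% of all genes were. Of the 53 genes tested on these 6 lists, edgeR called 0 between KO and WT Tregs, with 7 at an unadjusted p under 0.05, and 0 between KO and WT non-Tregs, with 13, where DESeq2 called 0 and 1. All genes tested were called at 0.00725% and 0.145% there, and 592 and 1106 of the 13796 had an unadjusted p under 0.05. Whether effector genes have a part in the level of *Id2* or *Id3* was not tested.

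**Figure D4:**
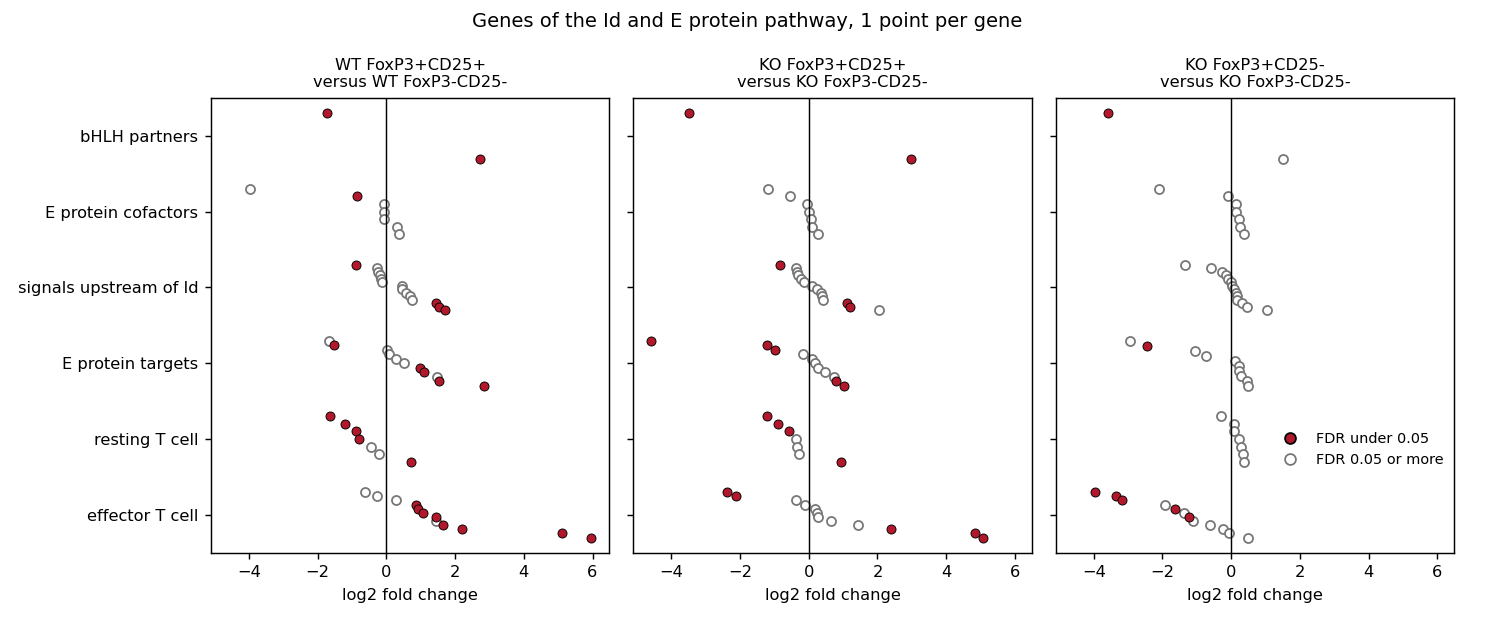
Log2 fold changes (x axis) of the tested genes of 6 pathway lists in 3 comparisons within a genotype, 1 point per gene, spread vertically within a list for view only. Filled points passed FDR 0.05. *Zbtb16* is left out of the right panel because 1 group had 0 counts. *Tgfbr1* and *Bmpr2* are filled on the right of 0 in both Treg panels and open in the FoxP3+CD25- panel, where 5 effector genes are filled on the left.

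Some markers of other cell types differed between these groups. Natural killer and CD8+ T cells are known for high *Id2*, and the 5 markers of this list summed to 19.4 to 36.9 CPM in WT non-Tregs and 33.9 to 37.9 in KO non-Tregs, against 15.9 to 18.8 and 18.2 to 22.7 in WT and KO Tregs and 11.3 to 16.0 in KO FoxP3+CD25- cells. The log2 difference of *Nkg7* from KO non-Tregs was -3.73 in KO FoxP3+CD25- cells, with means of 18.4 and 1.46 CPM. *Cd8b1* did not move with it, at a mean of 11.7 CPM in WT non-Tregs and 10.3 in WT Tregs. In KO mice *Cd8b1* averaged 13.0 CPM in non-Tregs, 11.2 in FoxP3+CD25- cells and 13.3 in Tregs. *Ncr1* had at most 2 counts, with 0 in 8 of 10 libraries, and *Cd8a* had 1 to 50. The part of such cells in the level of *Id2* was not tested. B cells and plasmacytoid dendritic cells are known for *Tcf3* and *Tcf4*. The 7 B-cell markers, most of their sum from *Ighm*, ran from 414 to 599 CPM in WT Tregs and 371 to 428 in KO Tregs, against 305 to 329 in WT non-Tregs, 224 to 272 in KO non-Tregs and 254 to 299 in KO FoxP3+CD25- cells. *Cd79b* was 3.86 higher on the log2 scale in WT Tregs than in WT non-Tregs, but *Ms4a1* had at most 5 counts. The 6 markers of plasmacytoid dendritic cells summed to 63.3 to 89.8 and 90.6 to 108 CPM in WT and KO non-Tregs, 76.6 to 80.5 in KO FoxP3+CD25- cells, and 110 to 141 and 123 to 161 in WT and KO Tregs. *Siglech* and *Spib*, which define them, had at most 1 and 2 counts. The other markers did not all move with the sum. In WT Tregs against non-Tregs *Irf8* averaged 42.7 against 12.4 CPM, *Runx2* 31.5 against 13.8 and *Bst2* 39.3 against 45.1. In KO mice these were 59.1 against 23.4, 20.5 against 23.5 and 51.1 against 43.6. The part of B cells or plasmacytoid dendritic cells in the levels of *Tcf3* and *Tcf4* was not tested. The 6 myeloid markers summed to 13.9 to 21.5 CPM and the 4 globin genes to at most 1.98 CPM.

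For each member, the genes with the most similar profile over the 10 libraries were found by Pearson's r of log2 CPM. These libraries come from 5 groups and 4 mice and are not independent, and the 4 genes of highest r are given as a description. For *Id2* they were *Prex1* (r = 0.975), *Ap1b1* (0.975), *Ankrd13a* (0.965) and *Kif22* (0.962). For *Id3* they were *Fzr1* (0.953), *Bmp7* (0.916), *Aldh2* (0.912) and *Mmp14* (0.901). *Mmp14* (0.921) was also among those of *Tcf4*, after *Fcho2* (0.969), *Mprip* (0.955) and *Slfn5* (0.941). *Tcf3* went with *Arpc5*, *Hras*, *Chmp4b* and *Thap11* (0.938 to 0.956), and *Tcf12* with *Dok2*, *Lsm14a*, *Stk24* and *Sh3d21* (0.912 to 0.952). Among the members themselves, r was highest for *Id3* with *Tcf4* (0.741), and it was -0.13 for *Id2* with *Id3*.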

How the data were processed

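CD4+ T cells of mouse spleen were sorted by GFP and CD25, and libraries were sequenced as 50-base reads per the labels. The files deposited by the authors hold counts of reads per gene symbol that were not normalized. Per the submitters' processing notes, reads were aligned to GRCm38 (mm10) with HISAT2 (version 2.1.0) and counted with HTSeq (version 0.11.1). The annotation and strand setting are not given in the sources used here. Rows that name no gene were left out, and 26.0% to 28.5% of reads were counted on genes.

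The 10 libraries entered 1 edgeR (version 4.0.16) model in R (version 4.3.3) with a mean per group: filterByExpr with a minimum count of 10, TMM factors (0.975 to 1.03), the bias-adjusted quasi-likelihood fit, two-sided F-tests of 8 comparisons, and Benjamini-Hochberg adjustment over 13796 genes. The spread rests on 5 residual degrees of freedom of the design and on what the fit borrows across genes, and tests and intervals use both. The coefficient of variation common to all genes was 0.147. This spread pools the groups and takes libraries read as the same mouse to be independent. With 2 mice per genotype, it is thus not a measure of variation between mice alone. Replicates differed by more than counting noise (chi-square per degree of freedom 6.96 to 20.3). RPKM used union exon lengths. DESeq2 (version 1.42.0), other filters, factors and fits, blocks and left-out libraries were alternatives. Same-numbered libraries deviated together within a genotype (r = 0.303 in WT, 0.421 to 0.445 in KO, across genes) but not between genotypes (-0.01 to 0.114). This pairing within a genotype comes from the labels' numbers, read as mice.

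The members and lists were chosen with earlier results of these data known. Named genes were the members, *Satb1*, *Foxp3*, *Id1*, *Id4*, up to 4 genes of lowest p per list among those called in a comparison, and the 4 genes most similar to each member over 10 libraries (log2 CPM, prior count 2). Further genes named to complete a count were chosen after their values were seen. E-boxes were searched in RefSeq promoter windows of 4 of the 5 members, and *Tcf4* was left out of this search. Counts of called list genes without those whose lower group lay under the filter's level were added after seeing the data. Scripts were tested on simulated data. Values of some listed genes are not reported here.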

Additional observations from a re-analysis of the deposited data

How the results depend on the processing

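With 2 libraries per group, calls near the threshold depended on single libraries, and the cause was not tested. In WT Tregs against WT non-Tregs, 1 of the 5 members was called when only the compared groups were fitted, and 0 to 2 when libraries were left out. In KO FoxP3+CD25- cells against KO non-Tregs, 1 member (*Id2*) was called in place of 0 with no filter, with the replicate block, with the replicate block by mouse and with DESeq2. Against KO Tregs, 0 to 1 were called on leaving out libraries. In KO against WT non-Tregs, 0 were called without any 1 of the libraries. In KO FoxP3+CD25- cells against WT non-Tregs, 2 (*Id3* and *Tcf4*) were called in place of 0 with no filter and with the replicate block, and 1 (*Id3*) with only the compared groups and with DESeq2. The replicate number pairs libraries within a genotype only, so its block bears less on comparisons of KO with WT, and the block changed no other number of members called. Of the members' fold changes under the alternatives, 504 kept direction and side of the threshold, 10 gained and 14 lost the call, and 22 changed direction.

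Those 22 were values near 0 that had not been called. The *Tcf12* difference of the KO effects was 0.019 with no filter, 0.0019 with CPM above 1 in at least 2 libraries and 0.0017 with the replicate block by mouse, and ran from -0.12 to 0.13 on leaving out libraries. On leaving out libraries, *Tcf3* ran from -0.22 to 0.060 in WT Tregs against non-Tregs, from -0.051 to 0.23 in KO against WT Tregs and from -0.22 to 0.066 in the difference of KO effects, where *Tcf4* ran from -0.40 to 0.011. *Tcf12* ran from -0.16 to 0.084, from -0.019 to 0.21 and from -0.035 to 0.17 in KO FoxP3+CD25- against KO non-Tregs, KO against WT non-Tregs and KO FoxP3+CD25- against WT non-Tregs. *Id3* ran from -0.18 to 0.14 in KO Tregs against non-Tregs, and *Id2* from -0.19 to 0.31 in KO against WT Tregs and from -0.65 to 0.059 in KO FoxP3+CD25- cells against WT non-Tregs.

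Counts over all genes moved more. With the replicate block by mouse they rose from 1504 to 2634 in WT and from 874 to 1649 in KO Tregs against non-Tregs, from 230 to 786 and from 967 to 2090 in KO FoxP3+CD25- cells against KO non-Tregs and KO Tregs, and from 0 to 148 for the difference of KO effects. With DESeq2 they were 353 in place of 230, 103 in place of 20 and 204 in place of 106 in KO FoxP3+CD25- against KO non-Tregs, KO against WT non-Tregs and KO FoxP3+CD25- against WT non-Tregs. On leaving out libraries they ran from 715 to 2185 in WT and from 396 to 441 in KO Tregs against non-Tregs. At 68 to 121 counts per library, *Tcf4* has the widest interval of the E protein genes.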
